A study of Danio rerio with 20 samples.

Results

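The comparison covers 10 of the 20 libraries of the series: 5 from the muscle of male zebrafish of the strain AB JxTu at an age of 3 years after exercise in a swim tunnel (called 3y_swim), and 5 from male fish of that strain and age with no perturbation (3y_control). They were chosen by their labels of age and perturbation, and the measured genes played no part in the choice. A swim tunnel is a channel in which fish hold their place against a current. The labels give neither the length, speed or number of the swims, nor the time between the last swim and sampling, nor which muscle was taken. The other 10 libraries, 5 of 1-year-old males after the swim tunnel (1y_swim) and 5 at rest (1y_control), are used for the spread between replicates and for the difference between the ages. Each library held 3.20e+07 to 4.30e+07 counts in 3y_swim and 3.55e+07 to 4.30e+07 in 3y_control. No label ties a library to 1 fish, a tank or a day, so each p-value rests on the spread among these libraries alone, and that spread may be technical in part. Symbols are those of the gene name table, where some stand in the capitals of the human gene.

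Zebrafish trunk muscle is mostly fast, glycolytic white muscle, with a thin lateral band of slow, oxidative red muscle. Myosin heavy chains pull on actin and set the speed of a fibre, and they need dedicated chaperones, among them UNC45B, the muscle form of HSP90 and the methyltransferase SMYD1, to fold and join thick filaments. Mitochondria import nearly all their proteins through the TOM and TIM translocases, and the matrix chaperones HSPA9, HSPD1 and HSPE1 pull them in and fold them. Endurance training is known in muscle for raising mitochondrial content, and a single bout for brief transcription of stress and immediate early genes.

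Muscle genes were abundant in both groups. The 8 skeletal muscle markers matched in the table (creatine kinases, parvalbumins, nebulin and the calcium pump atp2a1) summed to 1.365e+05 to 2.188e+05 CPM (counts relative to the scaled library size) in 3y_swim, against 1.257e+05 to 1.723e+05 CPM in 3y_control, and no marker was at 0 in all 10 libraries. Markers of skin differed more. The 49 epidermis genes (keratins, claudins, desmosome proteins and others) summed to 928 to 4563 CPM in 3y_swim, against 948 to 1548 CPM in 3y_control, and 3y_swim 1 with 3699 CPM and 3y_swim 3 with 4563 CPM stood above the other 8 libraries. The 24 erythrocyte genes summed to 166.2 to 201.8 CPM in 3y_swim, against 117 to 161.6 CPM in 3y_control, with no overlap. Of the 16 erythrocyte genes tested, 0 had an unadjusted p under 0.05, and their mean log2 level overlapped between the groups. The part of blood in these values was not tested. Among 12412 genes the first 2 principal components held 24.2% and 19.9% of the variance and did not part the groups: 3y_swim 4 and 3y_control 1 lay far out together on the first, and 3y_swim 1 and 3 on the second. The correlation of log2 levels was 0.945 to 0.975 between libraries of 3y_swim, 0.940 to 0.976 within 3y_control and 0.945 to 0.972 between a 3y_swim and a 3y_control library. Libraries of different groups were about as alike as libraries of 1 group. In bulk muscle, fewer cells of a type and less RNA per cell cannot be told apart.

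Of 17025 genes tested, 12 were called (0.0705%): 8 were higher (0.047%) and 4 lower (0.0235%) in 3y_swim at an edgeR adjusted p under 0.05. The called genes include a fast myosin, a nuclear export receptor and a motor protein of DNA repair on the higher side. On the lower side are an enzyme of polyamine synthesis and 2 chaperones of the mitochondrial matrix. At an unadjusted p under 0.05 there were 1537 genes (9.03%), 750 higher (4.41%) and 787 lower (4.62%). Over all genes 48.9% had a positive and 51.1% a negative log2 change. In 149 genes (0.875%) every 3y_swim library lay above every 3y_control library, and in 135 (0.793%) below. Genes of high level were more often among those with a small p, 15.2% of the 315 genes with a mean log2 CPM of 8 or more against 5.82% of the 4465 genes under 0. The median log2 change was -0.01 and the median standard error 0.28, so small changes of a typical gene were not detectable at this number of libraries.

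The size of the set of called genes rested on single libraries, on the scaling and on the 1-year libraries that share the estimate of the spread. With library totals in place of TMM scaling, which lowers the median of all genes to -0.11, 0 genes were higher and 3 lower, so the split of 8 against 4 was not kept. The count was 1 without 3y_swim 3, 3y_swim 4, 3y_control 4, 3y_control 5 or 1y_swim 2, it was 2 without 3y_swim 5, 3y_control 1 or 3y_control 3, and 5 to 7 without 1y_control 1, 2 or 4, 1y_swim 1 or 3y_control 2. AMD1 passed in all 28 alternatives tried, myhz2 and si:dkey-190l8.2 in 17, ENSDARG00000104933 in 15, si:ch73-141c7.1 and CD82 in 13 and XPO1 in 11. HSPD1 and RAD54B passed in 9, HSPA9 in 6 and KLHL32 in 4 of 28, and si:ch211-114l13.11 in 8 of 26. Each kept its sign with library totals. In the 10 libraries of 3 years alone, AMD1 was the only one of the 12 to pass (edgeR adjusted p = 0.0243). MYO1E, not called in the main fit, passed beside it, and si:ch211-114l13.11 was not tested there. The Wald test of DESeq2 called 103 genes, 57 higher and 46 lower, the 12 among them.

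**Figure D1:**
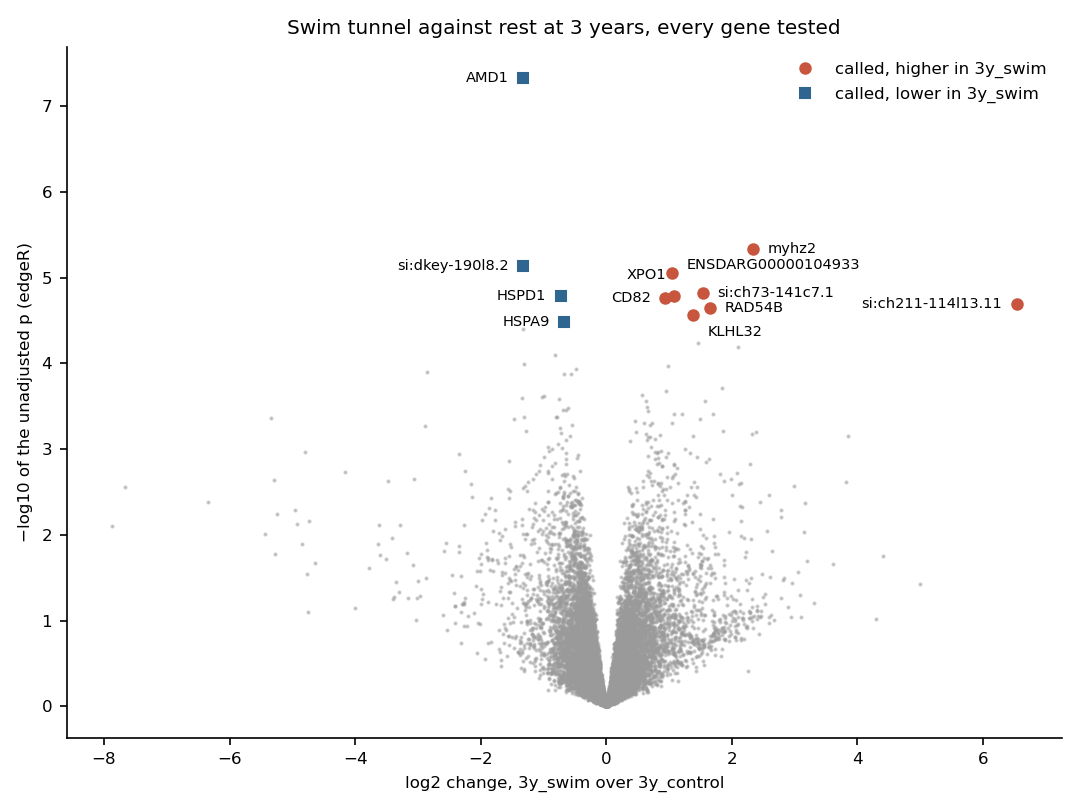
Each point is a gene, with its log2 change (3y_swim over 3y_control) across and the −log10 of its unadjusted p from edgeR upwards; the 12 called genes are in colour with their names. AMD1 stands alone at the top with a p of 4.76e-08, and the changes of the other called genes other than si:ch211-114l13.11 lie between -1.32 and 2.34.

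AMD1 (ENSDARG00000043856), S-adenosylmethionine decarboxylase, makes the aminopropyl donor from which cells build spermidine and spermine. It fell to 21.65, 18.85, 22.6, 18.9 and 24.5 CPM in the libraries of 3y_swim, against 45.5, 53.7, 46.5, 68.3 and 52.85 CPM in 3y_control. The highest 3y_swim library lay well under the lowest 3y_control library. The log2 change was -1.32 ± 0.15 (SE, n = 5 per group), with an edgeR adjusted p of 0.000810. Antizymes bind ODC1 and steer it to breakdown. Of the 23 genes tested in the list of polyamine synthesis and antizymes, AMD1 alone was called, 9 had a positive and 14 a negative log2 change, and the median was -0.09. That median was -0.21 with library totals, -0.16 without 3y_control 3, -0.05 without 3y_control 2, and -0.04 without any 1 of 3y_swim 2, 3y_swim 3 or 3y_control 1. ODC1, which makes putrescine, had 0.795 to 3.43 CPM in 3y_swim against 0.440 to 3.16 in 3y_control and a log2 change of 0.75 ± 0.63. The spermidine synthase SRM and the spermine synthase SMS had log2 changes of -0.26 ± 0.17 and -0.21 ± 0.21. SMOX, spermine oxidase, which breaks spermine down, had 44.5, 58.85, 37.2, 41.95 and 48.3 CPM in 3y_swim and 31.8, 33.5, 22.1, 28.0 and 32.9 CPM in 3y_control. The SMOX groups did not overlap, and its log2 change of 0.64 ± 0.36 did not pass (edgeR adjusted p = 0.627).

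S-adenosylmethionine, the substrate of AMD1, is made by MAT2A and after methyl transfer is cleared by AHCY. In the list of the methionine and one-carbon cycle, 19 of 30 tested genes had a positive log2 change, 4 were higher and 1 lower at an unadjusted p under 0.05, and 0 were called (1 by DESeq2, MAT2A). The median of 0.07 was -0.03 with library totals, 0.21 without 3y_control 1 and 0.01 without 3y_control 4. The MAT2A gene ENSDARG00000037121 had 9.08, 5.96, 8.34, 1.72 and 70.14 CPM in 3y_swim, against 0.7375, 5.88, 1.97, 2.25 and 1.16 CPM in 3y_control. 3y_swim 5 was far above all others, 3y_swim 4 lay within the range of 3y_control, and the log2 change of 2.98 ± 0.87 (edgeR adjusted p = 0.286) was 1.38 without 3y_swim 5. The second MAT2A gene (ENSDARG00000040334) had a log2 change of 0.46 ± 0.18, and AHCY one of 0.63 ± 0.22. MTR, methionine synthase, went the other way with -0.84 ± 0.27. None of these 4 passed after adjustment over all genes.

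HSPA9 and HSPD1, chaperones of the mitochondrial matrix, fell in 3y_swim, and most of the genes that fold or degrade matrix proteins had negative log2 changes with them. HSPA9 (ENSDARG00000003035), the mitochondrial HSP70, had 96.8, 101, 85.3, 83.7 and 110.4 CPM in 3y_swim, against 193.5, 135, 146, 148 and 137.5 CPM in 3y_control. The groups did not overlap, 3y_control 1 was the highest, and the log2 change was -0.67 ± 0.12 (edgeR adjusted p = 0.0473). HSPD1 (ENSDARG00000056160), the chaperonin HSP60, fell to 21.15, 21.4, 21.05, 22.3 and 25.6 CPM in 3y_swim, against 37.7, 28.4, 37.7, 48.6 and 32.25 CPM in 3y_control. Its 3y_swim libraries lay close together below the whole range of 3y_control, with a log2 change of -0.73 ± 0.13 (edgeR adjusted p = 0.0368). HSPE1, the lid of the HSPD1 barrel, is the direct neighbour of HSPD1 in the RefSeq annotation GRCz12tu, with 0 protein-coding genes between them. HSPE1 had 18.98, 22.3, 19.1, 24.6 and 22.4 CPM in 3y_swim and 45.4, 30.3, 29.3, 40.0 and 27.7 CPM in 3y_control. These groups did not overlap either, and its log2 change of -0.69 ± 0.16 had an edgeR adjusted p of 0.168, which did not pass.

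Across the 28 tested genes of mitochondrial matrix chaperones and proteases, 2 were called lower, 26 had a negative and 2 a positive log2 change, and the median was -0.29. At an unadjusted p under 0.05 there were 13 lower and 0 higher, and in 6 genes all of 3y_swim lay below all of 3y_control. Of all genes tested, 0.0235% were called lower, 4.62% were lower at that unadjusted p and 0.793% had no overlap on the lower side. DESeq2 called 6 of the list lower, HSPA9, HSPD1, HSPE1, TRAP1, afg3l1 and 1 of the PHB2 genes. TRAP1, the HSP90 of mitochondria, had 15.2, 16.5, 14.1, 12.7 and 16.8 CPM in 3y_swim, against 23.0, 21.6, 30.4, 21.1 and 21.3 CPM in 3y_control, and the groups did not overlap. The prohibitin gene PHB2 (ENSDARG00000045297), which forms rings in the inner membrane, had 27.8, 29.98, 26.2, 28.2 and 24.3 CPM in 3y_swim, against 52.3, 51.35, 42.1, 37.9 and 34.9 CPM in 3y_control, again with no overlap. The log2 changes were -0.64 ± 0.15 for TRAP1 and -0.68 ± 0.14 for this PHB2 gene, at edgeR adjusted p = 0.168 and 0.1045. afg3l1, a subunit of the inner membrane protease, LONP1, the main matrix protease, and GRPEL1, the nucleotide exchange factor of HSPA9, had log2 changes of -0.72 ± 0.18, -0.65 ± 0.18 and -0.45 ± 0.14. CLPP, the peptidase of the CLP complex, had -0.43 ± 0.15, whereas the genes CLPX for its unfoldase had -0.05 ± 0.15 and -0.11 ± 0.30. The mean level of the list did not overlap between the groups. On the log2(CPM + 0.5) scale, centred over the 10 libraries, it was -0.21, -0.08, -0.26, -0.20 and -0.08 in 3y_swim and 0.25, 0.19, 0.10, 0.17 and 0.12 in 3y_control. Of the 75 lists, all but this one, protein import, the citric acid cycle and parvalbumins had levels that overlapped between the groups.

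The translocases showed the same sign. Of 37 genes of mitochondrial protein import, 32 had a negative log2 change, 14 were lower and 0 higher at an unadjusted p under 0.05, 5 did not overlap on the lower side (4.62% and 0.793% of all genes), and 0 were called (3 lower by DESeq2, among them TIMM50 and TIMM10). TIMM50, the receptor of the inner membrane translocase, had 8.85, 6.63, 8.19, 8.73 and 8.18 CPM in 3y_swim, against 13.2, 11.1, 12.5, 12.3 and 10.5 CPM in 3y_control. Its groups did not overlap, and the log2 change was -0.55 ± 0.12 (edgeR adjusted p = 0.1045). TIMM10, a chaperone that carries precursors across the intermembrane space, had 11.7, 14.3, 11.1, 15.3 and 8.42 CPM in 3y_swim, against 26.0, 23.1, 16.3, 19.8 and 20.0 CPM in 3y_control. Here too the groups stood apart, at a log2 change of -0.79 ± 0.19 (edgeR adjusted p = 0.168). Log2 changes of -0.56 ± 0.17 for TIMM17A, a channel subunit, -0.64 ± 0.17 for MTX2, a metaxin of the outer membrane, and -0.35 ± 0.11 for TOMM40, the outer membrane pore, did not pass. timm23a, the channel itself, had 0.16 ± 0.17. The mean level of the list was -0.18, -0.15, -0.18, 0.01 and -0.17 in 3y_swim and 0.37, 0.10, 0.10, 0.03 and 0.07 in 3y_control, with 3y_control 1 far above the rest. The list's median log2 change was -0.32, and -0.21 without 3y_control 1.

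Genes for mitochondrial translation and oxidation had negative medians as well. Among 73 mitochondrial ribosomal proteins, 67 had a negative log2 change, 20 were lower and 0 higher at an unadjusted p under 0.05, and 0 were called by either edgeR or DESeq2. The shares over all genes, 4.41% higher and 4.62% lower at that p, are to be set beside such counts here and below. Their median of -0.26 was -0.16 without 3y_control 1. MRPL47 had 20.2, 17.9, 22.4, 21.2 and 17.1 CPM in 3y_swim, against 32.0, 32.8, 37.15, 30.1 and 26.7 CPM in 3y_control, with no overlap and an edgeR adjusted p of 0.300. mrpl9, also of the large subunit, had 3.63, 4.20, 4.26, 3.92 and 3.75 CPM in 3y_swim, against 11.4, 4.51, 5.65, 4.63 and 7.57 CPM in 3y_control. GFM1, the elongation factor that moves the mitochondrial ribosome along, had 18.7, 29.4, 18.6, 22.1 and 19.8 CPM in 3y_swim, against 52.4, 38.1, 32.6, 34.25 and 32.5 CPM in 3y_control. Neither gene overlapped between the groups, and the log2 changes of -0.77 ± 0.23 and -0.80 ± 0.19 did not pass (edgeR adjusted p = 0.290 and 0.168), though DESeq2 called GFM1. 3y_control 1 was the highest library in both, and without it the log2 change of mrpl9 was -0.50.

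Of 24 genes of the citric acid cycle, 22 had a negative log2 change and 9 were lower at an unadjusted p under 0.05, with a median of -0.26 and 0 called by edgeR or DESeq2. The mean level of this list was -0.05, 0.01, -0.11, -0.17 and -0.25 in 3y_swim and 0.20, 0.04, 0.11, 0.15 and 0.07 in 3y_control, a further list whose groups did not overlap. IDH3A, a subunit of isocitrate dehydrogenase, had a log2 change of -0.53 ± 0.16. In fatty acid oxidation 37 of 45 genes had a negative log2 change, 15 were lower and 1 higher at an unadjusted p under 0.05, and the median of -0.36 was -0.23 without 3y_control 1. ACADM, which starts the breakdown of medium-chain fatty acids, had 316, 395, 317, 266 and 283 CPM in 3y_swim, against 809.5, 538, 412, 477 and 378 CPM in 3y_control. 3y_control 1 was the highest and 3y_swim 2 lay within the range of 3y_control. FABP3, which carries fatty acids in the cytosol, had 78.1, 92.7, 62.6, 77.3 and 81.9 CPM in 3y_swim, against 282, 135, 103.5, 103 and 106 CPM in 3y_control. Its groups did not overlap, but 3y_control 1 stood far above the other 4, and the log2 change of -0.89 ± 0.31 (edgeR adjusted p = 0.370) was -0.51 without it.

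The nuclear genes of the respiratory chain had fewer members at that p. Of 39 nuclear genes of complex I, 35 had a negative log2 change but 2 were lower at an unadjusted p under 0.05, and the median of -0.18 was -0.05 without 3y_control 1. For the 49 nuclear genes of complexes II to V, 37 were negative, 5 lower at that p, and the median of -0.14 was -0.03 without the same library. SDHB, the iron-sulfur subunit of complex II, had 148, 143, 118, 133 and 109 CPM in 3y_swim, against 242, 262, 164, 205 and 149 CPM in 3y_control, with no overlap and a log2 change of -0.65 ± 0.18 (edgeR adjusted p = 0.272). 12 of the 13 mitochondrially encoded genes had a negative log2 change, 5 were lower at an unadjusted p under 0.05, and the median was -0.36. MT-ND1 had 2093, 2533, 2545, 2020 and 2719 CPM in 3y_swim, against 5561, 2970, 3147, 3219 and 3723 CPM in 3y_control. The groups of MT-ND1 did not overlap, with 3y_control 1 far above the others, and its log2 change of -0.64 ± 0.17 was called by DESeq2 and not by edgeR (adjusted p = 0.225). Of 25 regulators of mitochondrial biogenesis, 12 had a positive and 13 a negative log2 change, 2 each were higher and lower at an unadjusted p under 0.05, and 0 were called by edgeR or DESeq2. NRF1 had -0.38 ± 0.12 and pprc1, a relative of PGC-1, -0.57 ± 0.21. Of 49 SLC25 carriers of the inner membrane 28 had a negative log2 change, 5 were lower and 2 higher at an unadjusted p under 0.05, and 0 were called by edgeR (1 by DESeq2). That gene, SLC25A33, a pyrimidine nucleotide carrier, had 69.1, 33.2, 22.4, 87.6 and 65.4 CPM in 3y_swim, against 15.2, 10.8, 7.915, 23.9 and 6.80 CPM in 3y_control. 3y_swim 3 lay just under 3y_control 4, and the log2 change of 2.10 ± 0.41 had an edgeR adjusted p of 0.0730. Slow fibres hold more mitochondria than fast ones. The level of the slow fibre genes, 0.79, -1.13, 0.70, -0.83 and -0.19 in 3y_swim and 0.18, -0.36, 1.26, -0.05 and -0.36 in 3y_control, overlapped widely between the groups, and its part in these results was not tested.

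**Figure D2:**
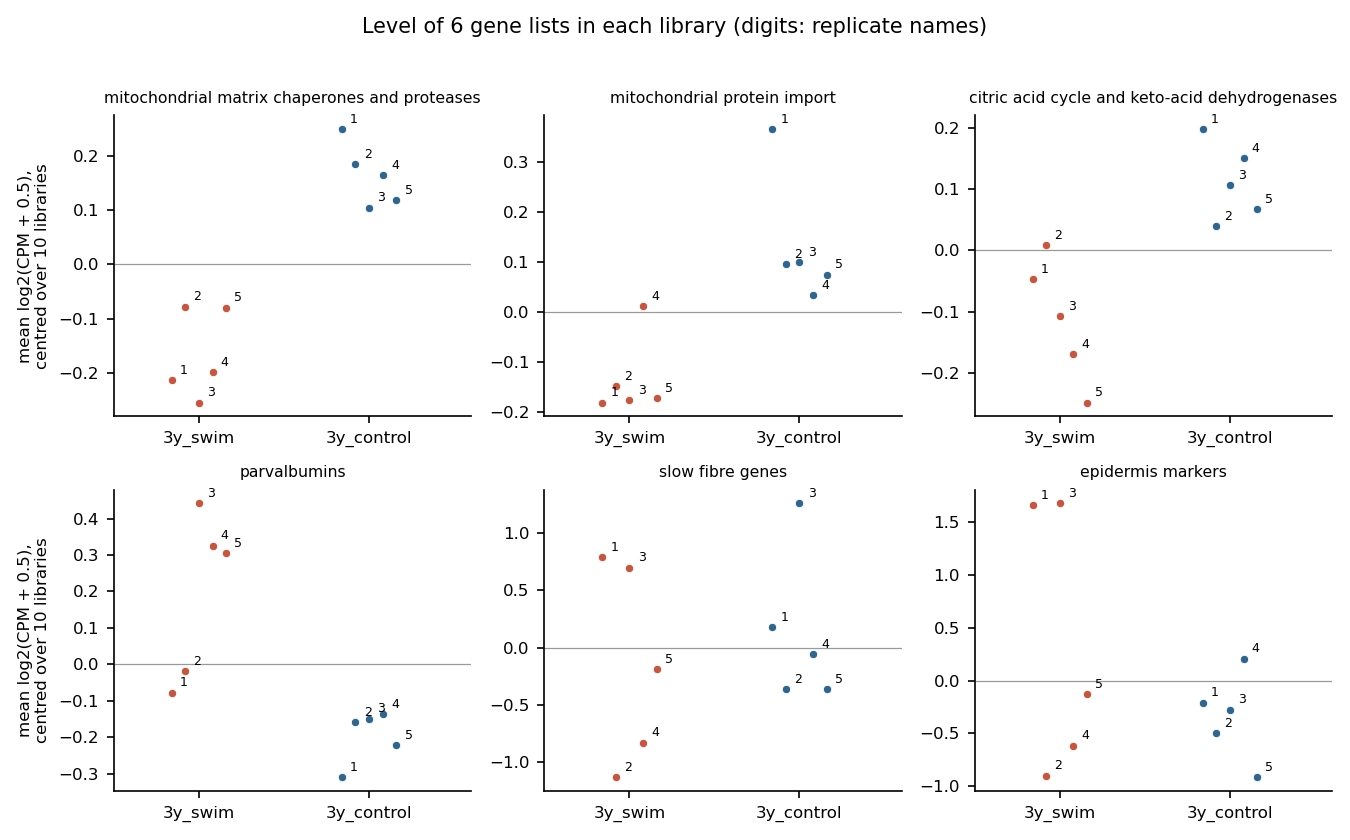
Mean log2(CPM + 0.5) of the genes of 6 lists in each library, centred over the 10 libraries, with 3y_swim left and 3y_control right and a digit naming the replicate. The groups do not overlap for matrix chaperones and proteases, protein import, the citric acid cycle and parvalbumins, whereas slow fibre genes and epidermis markers differ mainly between single libraries. In all other lists of the 75 the groups overlap by this level. The level uses TMM-scaled CPM and was not computed with library totals.

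myhz2 (ENSDARG00000012944), a fast skeletal myosin heavy chain, had the highest log2 change of the called genes apart from si:ch211-114l13.11, a gene of few counts. It rose to 249, 48.5, 294.5, 303 and 377 CPM in 3y_swim, against 35.8, 33.65, 79.6, 59.3 and 43.7 CPM in 3y_control. In 4 of 5 libraries of 3y_swim it was above all of 3y_control, and 3y_swim 2 lay within the range of 3y_control. The log2 change was 2.34 ± 0.37 (edgeR adjusted p = 0.0368), and myhz2 passed in 17 of 28 alternatives. The myosin genes next to it did not follow in one way. In the RefSeq annotation GRCz12tu, myhz1.3, myhz1.2, myhz1.1 and myha lie on the chromosome of myhz2 with 1 to 4 protein-coding genes between. myhz1.3 had 8.31, 15.25, 14.2, 14.0 and 18.4 CPM in 3y_swim, against 5.69, 6.76, 7.34, 8.80 and 7.54 CPM in 3y_control, a log2 change of 0.96 ± 0.21 (edgeR adjusted p = 0.151; called by DESeq2). 3y_swim 1 lay under 3y_control 4 there, and the other 4 above all of 3y_control. myhz1.1 also had a positive log2 change, of 0.67, which did not pass (edgeR adjusted p = 0.470) and was 0.52 to 0.96 over the 28 alternatives. myhz1.2 had 13.8, 522, 257, 298 and 313 CPM in 3y_swim, against 161, 385, 127.5, 234 and 377 CPM in 3y_control. myha had 20.1, 1973, 859, 967 and 1159 CPM in 3y_swim, against 515, 1649, 526, 835 and 1293 CPM in 3y_control. In both, 3y_swim 1 was far below every other library while the remaining ones overlapped, and the log2 changes were 0.13 ± 0.84 and 0.05 ± 1.02.

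Over all 8 fast myosin heavy chains 7 had a positive log2 change, 4 were higher at an unadjusted p under 0.05, and the median was 0.31, 0.20 without 3y_control 1, 0.47 without 3y_control 2 and 0.51 without 3y_swim 1. myhc4, a further fast myosin, had 41160 to 66390 CPM in 3y_swim and 29390 to 53200 CPM in 3y_control, a log2 change of 0.48 ± 0.18. Since the counting rule for reads that fit several genes is not given in the sources used here, values of these near-identical genes may share reads. The 6 slow and cardiac myosin heavy chains had a median of -0.36, which was 0.44 without 3y_control 3 and -0.64 without 3y_swim 1, and 0 of them had an unadjusted p under 0.05. Among 51 other fast fibre sarcomere genes 28 were positive, 9 were higher and 1 lower at that p, and 0 were called by edgeR or DESeq2. Their median of 0.10 was -0.01 with library totals, and over fits without 1 library it ranged from 0.04 (without 3y_swim 1) to 0.28 (without 3y_control 3). actn3a, the alpha-actinin of fast Z-discs, had 2926, 4182, 2695, 3372 and 3216 CPM in 3y_swim, against 1561, 2645, 1691, 1959 and 2430 CPM in 3y_control, with no overlap (log2 change 0.67 ± 0.21, edgeR adjusted p = 0.309). Parvalbumins buffer calcium and speed relaxation: 5 of 6 had a positive log2 change, and the median of 0.44 was 0.28 without 3y_swim 5. Their mean level was -0.08, -0.02, 0.44, 0.33 and 0.31 in 3y_swim and -0.31, -0.16, -0.15, -0.14 and -0.22 in 3y_control, so the lowest 3y_swim library was just above the highest 3y_control library. pvalb3 had a log2 change of 0.62 ± 0.22 and pvalb2 one of 1.03 ± 0.45, and neither was called.

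Some chaperones of myosin had lower levels in 3y_swim, without passing the test. UNC45B, which holds the myosin head while it folds, had 41.9, 71.7, 34.6, 60.4 and 93.0 CPM in 3y_swim, against 125, 95.7, 161.5, 237 and 128 CPM in 3y_control. The highest 3y_swim library, 3y_swim 5, lay just under the lowest of 3y_control, and the log2 change was -1.31 ± 0.27 (edgeR adjusted p = 0.101; called by DESeq2). hsp90aa1.1, known in zebrafish as the HSP90 of muscle, had 73.5, 224, 77.8, 217 and 279 CPM in 3y_swim, against 465, 312, 334, 554 and 297 CPM in 3y_control. 3y_swim 1 and 3 were lowest, the groups did not overlap, and the log2 change of -1.17 ± 0.37 (edgeR adjusted p = 0.322) was -0.70 without those libraries. The 2 SMYD1 genes had 0.06 ± 0.24 and -0.15 ± 0.29, whereas smyd2b, a related methyltransferase, had 0.84 ± 0.26. Of the 11 genes of myosin folding and methylation, 4 were lower and 1 higher at an unadjusted p under 0.05. Of 58 cytosolic chaperones 43 had a negative log2 change, 10 were lower and 1 higher at an unadjusted p under 0.05, and 0 were called by edgeR or DESeq2. The higher one, FKBP5, is described with the glucocorticoid genes. The 14 subunits of the TRiC chaperonin had 10 positive and 4 negative log2 changes and 0 at that p.

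**Figure D3:**
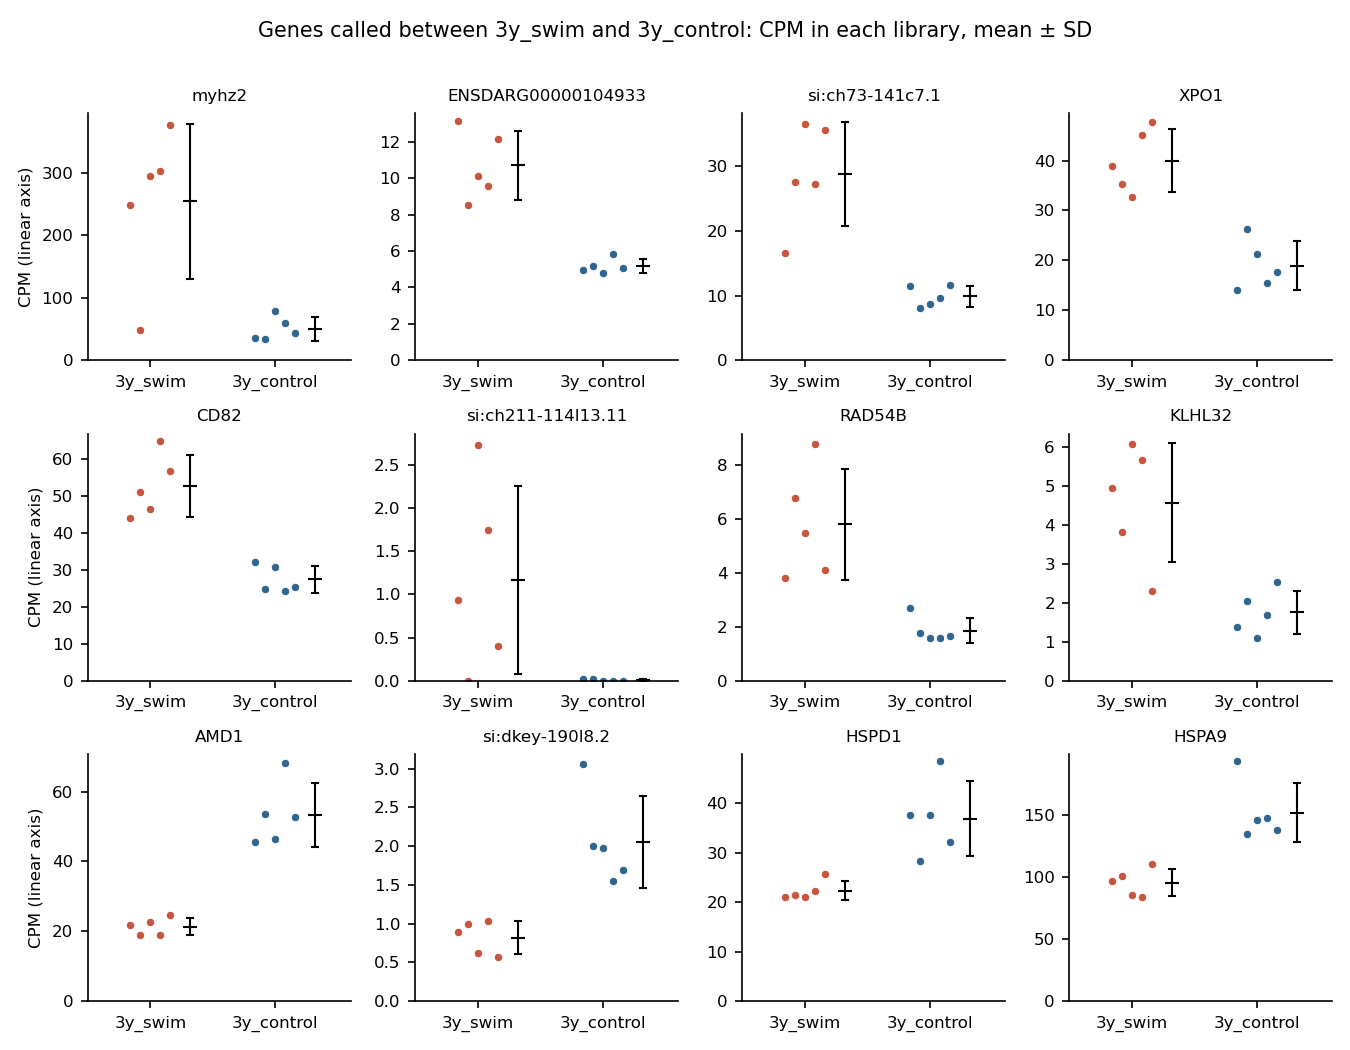
CPM of the 12 called genes in each library, 3y_swim left and 3y_control right on linear axes from 0, with the mean ± SD (n = 5) beside the points; the 8 genes higher in 3y_swim come first. For 9 genes the groups do not overlap; in myhz2, KLHL32 and si:ch211-114l13.11 the lowest library of 3y_swim lies within the range of 3y_control.

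XPO1 (ENSDARG00000063229), exportin 1, carries proteins with a leucine-rich export signal out of the nucleus. It rose to 38.9, 35.3, 32.8, 45.1 and 47.8 CPM in 3y_swim, against 14.0, 26.25, 21.2, 15.4 and 17.7 CPM in 3y_control. The groups did not overlap, and the log2 change was 1.08 ± 0.19 (edgeR adjusted p = 0.0368). Its list had mostly the other sign: 28 of 37 nuclear transport receptors had a negative log2 change, 7 were lower and 2 higher at an unadjusted p under 0.05. XPO7, a relative of exportin 1, had 7.06, 6.86, 5.28, 7.31 and 6.07 CPM in 3y_swim and 8.99, 7.245, 9.70, 11.1 and 10.3 CPM in 3y_control. Only 3y_control 2 lay among the libraries of 3y_swim there, and the log2 change of -0.54 ± 0.13 had an edgeR adjusted p of 0.175 (called by DESeq2). The importin IPO5 had -0.73 ± 0.23, or -0.45 without 3y_control 4, and XPO6, the exporter of actin, 0.36 ± 0.10. CD82 (ENSDARG00000019098), a tetraspanin of the cell membrane, rose to 44.0, 51.1, 46.4, 64.8 and 56.7 CPM in 3y_swim, against 32.2, 24.8, 30.65, 24.1 and 25.2 CPM in 3y_control, a log2 change of 0.94 ± 0.17 (edgeR adjusted p = 0.0368). Its groups were clearly apart. The second CD82 gene (ENSDARG00000026070) had 12.5 to 23.6 CPM in 3y_swim, against 8.70 to 13.2 CPM in 3y_control, and its log2 change of 0.74 ± 0.26 did not pass.

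RAD54B (ENSDARG00000092134) is a DNA-dependent motor protein of homologous recombination. It rose to 3.82, 6.76, 5.49, 8.78 and 4.10 CPM in 3y_swim, against 2.67, 1.76, 1.56, 1.575 and 1.66 CPM in 3y_control, with no overlap and a log2 change of 1.65 ± 0.30 (edgeR adjusted p = 0.03875). KLHL32 (ENSDARG00000003576), of the kelch-like family, rose to 4.95, 3.825, 6.08, 5.67 and 2.29 CPM in 3y_swim, against 1.38, 2.05, 1.11, 1.69 and 2.53 CPM in 3y_control, a log2 change of 1.38 ± 0.25 (edgeR adjusted p = 0.0426). 3y_swim 5 lay just under 3y_control 5. Of the 36 genes whose symbols begin with klhl, 13 had a positive log2 change and KLHL32 was the called one. The remaining called genes have clone names or none. si:ch73-141c7.1 (ENSDARG00000009040) rose to 16.6, 27.6, 36.5, 27.3 and 35.6 CPM in 3y_swim, against 11.5, 8.06, 8.66, 9.56 and 11.7 CPM in 3y_control, and ENSDARG00000104933 to 13.15, 8.52, 10.1, 9.56 and 12.1 CPM, against 4.93, 5.175, 4.81, 5.86 and 5.09 CPM. Neither overlapped between the groups, with log2 changes of 1.54 ± 0.27 and 1.05 ± 0.18 (edgeR adjusted p = 0.0368 for both). si:ch211-114l13.11 (ENSDARG00000092358) had 0.9395, 0, 2.73, 1.75 and 0.405 CPM in 3y_swim, against 0.02305, 0.0220, 0, 0 and 0 CPM in 3y_control. It was at 0 counts in 3 libraries of 3y_control and in 3y_swim 2, so the size of its fitted change depends on the prior count and is not given (edgeR adjusted p = 0.03875). si:dkey-190l8.2 (ENSDARG00000091222) fell to 0.567 to 1.03 CPM in 3y_swim, against 1.55 to 3.065 CPM in 3y_control, with no overlap (log2 change -1.32 ± 0.22, edgeR adjusted p = 0.0368).

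Cytosolic ribosomal proteins and the proteasome had opposite signs. Of 84 ribosomal protein genes, 81 had a positive log2 change with a median of 0.27, but 0 had an unadjusted p under 0.05 and 0 were called by edgeR or DESeq2. The median was 0.12 without 3y_swim 4, whose level of the list, 0.60, was the highest of the 10 libraries. It was 0.14 with library totals. Genes of ribosome biogenesis did not share that sign: 45 of 60 were negative, 3 of them at an unadjusted p under 0.05, among these UTP20, a factor of small subunit assembly, with -0.50 ± 0.15. Of 56 proteasome subunits 43 were negative and 8 lower at that p, with a median of -0.22 that was -0.12 without 3y_control 1, -0.14 without 3y_swim 1 or 3y_control 4 and -0.33 without 3y_swim 4. Without 3y_swim 1 and 3 the proteasome median was -0.05. The levels of the proteasome and of the ribosomal proteins overlapped between the groups. Autophagy genes were split, 26 of 49 positive, with 0 at an unadjusted p under 0.05, and so were the atrophy ligases and FOXO factors, with 11 of 23 positive and 0 at that p. In the list of ATF4 and stress response genes 17 of 25 had a positive log2 change, with a median of 0.19. At an unadjusted p under 0.05, 3 of them were higher and 1 lower. The lower one, ASNS, asparagine synthetase, a target of ATF4, had 1.04, 1.17, 0.998, 1.36 and 0.864 CPM in 3y_swim, against 1.34, 1.78, 3.01, 2.87 and 1.87 CPM in 3y_control. 3y_swim 4 overlapped 3y_control 1, and the log2 change of -0.998 ± 0.22 had an edgeR adjusted p of 0.152 (called by DESeq2).

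Genes known for quick responses to exertion, stress hormones or low oxygen had high levels in some 3y_swim libraries and varied widely. Of 50 immediate early genes 39 had a positive log2 change, 7 were higher and 0 lower at an unadjusted p under 0.05, and 0 were called by edgeR (1 by DESeq2, NR4A3). The median of 0.33 was 0.12 without 3y_swim 1 and 3. NR4A3, an orphan nuclear receptor, had 79.4, 5.29, 2.64, 64.2 and 9.88 CPM in 3y_swim, against 1.08, 0.374, 1.85, 6.02 and 1.82 CPM in 3y_control. 3y_swim 1 and 4 stood far above the other 8 libraries, 3y_swim 2 and 3 lay within the range of 3y_control, and the log2 change of 3.86 ± 0.96 had an edgeR adjusted p of 0.189. JUN had 57.9 to 206 CPM in 3y_swim, against 40.4 to 84.4 CPM in 3y_control, and a log2 change of 1.02 ± 0.38, ATF3 one of 1.61 ± 0.63, which was 0.64 without 3y_swim 1, and egr1 one of 0.45 ± 0.41. FKBP5, the co-chaperone of the glucocorticoid receptor and one of its known targets, had 411, 261, 137, 231 and 374 CPM in 3y_swim, against 17.9, 87.3, 67.2, 90.6 and 174 CPM in 3y_control. 3y_swim 3 lay within the range of 3y_control, 3y_control 1 was the lowest, and the log2 change of 1.70 ± 0.55 had an edgeR adjusted p of 0.342. In the glucocorticoid response list 18 of 30 were positive and 4 higher at an unadjusted p under 0.05.

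PFKFB4, which makes an activator of glycolysis and is a known target of HIF, had 74.6, 34.7, 20.5, 78.4 and 59.3 CPM in 3y_swim, against 5.58, 32.4, 5.77, 14.1 and 9.78 CPM in 3y_control, a log2 change of 1.98 ± 0.56 (edgeR adjusted p = 0.281; called by DESeq2). Only 3y_control 2 reached the range of 3y_swim. PFKFB3 had 1.28 ± 0.53 and the lactate exporter SLC16A3 (ENSDARG00000045051) 0.87 ± 0.30. GPI, glucose-6-phosphate isomerase, went the other way, with 500.5, 283, 221, 596 and 375 CPM in 3y_swim, against 463, 937, 735, 1112 and 679 CPM in 3y_control (log2 change -0.99 ± 0.26, edgeR adjusted p = 0.232; called by DESeq2). 3y_swim 1 and 4 lay above 3y_control 1 and under the other 4. LDHB, the lactate dehydrogenase subunit of oxidative tissue, had -1.07 ± 0.35. In the HIF list 6 of 40 were higher and 2 lower, and in glycolysis 1 of 31 higher and 6 lower, at an unadjusted p under 0.05. Clock genes also varied. Of 21 genes listed by symbol as clock repressors 6 were higher and 2 lower at that p. Whether each of them acts as a repressor was not checked. The median of this list, 0.08, was -0.06 without 3y_swim 1 and ranged up to 0.19, without 3y_swim 5. cry4, a cryptochrome, had 22.55, 20.2, 32.0, 24.4 and 31.55 CPM in 3y_swim, against 14.7, 17.7, 13.4, 13.6 and 20.8 CPM in 3y_control (log2 change 0.70 ± 0.18, edgeR adjusted p = 0.189; called by DESeq2). 3y_swim 2 lay just under 3y_control 5. PER2 and PER3 had 0.87 ± 0.25 and 1.25 ± 0.42, NR1D2, which represses the activator arm, -0.66 ± 0.22, and the 2 genes CRY1 0.01 ± 0.11 and 0.91 ± 0.27. The labels give no time of day, and its part in these values was not tested.

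Immune genes had mostly positive log2 changes, beside more epidermis RNA in 2 libraries. Of 51 leukocyte markers 43 were positive and 6 higher at an unadjusted p under 0.05, with a median of 0.34. At that p 4.41% of all genes were higher. Their summed level was 416 to 635 CPM in 3y_swim and 359 to 471 CPM in 3y_control, and no marker was at 0 throughout. il1b, the cytokine interleukin 1 beta, had 2.67, 0.969, 2.52, 1.56 and 1.403 CPM in 3y_swim, against 0.7145, 0.5065, 0.505, 0.324 and 0.765 CPM in 3y_control. Its groups did not overlap, though 3y_swim 1 and 3, the libraries rich in epidermis genes, were the highest (log2 change 1.69 ± 0.39, edgeR adjusted p = 0.168; called by DESeq2). Without these 2 libraries its log2 change was 1.22. Of 40 genes of inflammation and chemokines 27 were positive and 7 higher at an unadjusted p under 0.05, and the median of 0.24 was 0.41 without 3y_swim 2 and 0.04 without 3y_swim 1 and 3. Of 46 interferon and antiviral genes 40 were positive, but the median of 0.41 was 0.11 without 3y_swim 4. At an unadjusted p under 0.05, 3 of them were higher and 0 lower (6.52%, against 9.03% of all genes in either direction). xaf1, an interferon-induced gene, had 7.35, 8.17, 8.78, 27.4 and 8.23 CPM in 3y_swim, against 6.73, 6.805, 5.32, 4.40 and 6.17 CPM in 3y_control, and 3y_swim 4 alone was far above the rest, so that its log2 change of 1.03 ± 0.45 was 0.47 without that library. mhc1uca, which encodes an MHC class I molecule, had 34.3, 60.0, 35.9, 62.4 and 50.6 CPM in 3y_swim, against 29.8, 30.8, 33.6, 28.6 and 13.9 CPM in 3y_control (log2 change 0.83 ± 0.29, edgeR adjusted p = 0.370). The 11 genes of MHC class II presentation had a median of 0.57, which was 0.20 without 3y_swim 3 and 0.35 without either 3y_control 1 or 3y_control 3. Of 38 epidermis markers 36 were positive and 6 higher at an unadjusted p under 0.05, with a median of 1.47 that was 0.80 without 3y_swim 1, 0.97 without 3y_swim 3 and -0.42 without 3y_swim 1 and 3. The part of skin and of leukocyte number in these values was not tested.

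Matrix and cell surface genes were mixed. loxl2a, an enzyme that cross-links collagen, had 26.6, 25.1, 10.6, 12.9 and 33.7 CPM in 3y_swim, against 5.02, 7.91, 4.62, 4.56 and 8.12 CPM in 3y_control. The groups did not overlap, and the log2 change of 1.85 ± 0.40 had an edgeR adjusted p of 0.145 (called by DESeq2). Of the 32 lysyl oxidases and collagen-processing enzymes 13 were positive, and loxl2a was the 1 with an unadjusted p under 0.05 on the higher side. Of 46 collagens 33 were positive and 2 higher and 1 lower at that p, with a median of 0.14 that was -0.01 without 3y_swim 5 and 0.30 without 3y_control 1. In either direction 6.52% of the collagens were at that p, under the 9.03% of all genes. ITGB5, a subunit of a vitronectin receptor, had 9.19, 12.4, 8.51, 10.95 and 9.93 CPM in 3y_swim, against 7.975, 7.49, 6.30, 6.14 and 6.33 CPM in 3y_control, with no overlap (log2 change 0.57 ± 0.13, edgeR adjusted p = 0.152; called by DESeq2). mmp17b, a matrix metalloprotease, had 1.835 to 3.63 CPM in 3y_swim, against 4.07 to 5.56 CPM in 3y_control. Genes of DNA replication and mitosis were positive in 46 of 55, 4 of them at an unadjusted p under 0.05 (7.27%, against 9.03% of all genes in either direction). Their median of 0.34 was 0.70 without 3y_control 1 and 0.21 without 3y_control 4. Most of these genes had low counts: the median of their mean log2 CPM was -0.71, against 1.73 over all genes tested. Exocrine pancreas markers were negative in 16 of 19, with 7 lower at that p, at summed levels of 3.52 to 17.4 CPM in 3y_swim and 6.09 to 28.9 CPM in 3y_control. Liver markers had a median of -0.53, which was 0.97 without 3y_control 2 and -0.97 without 3y_swim 3.

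Genes described so far as not called were chosen by their role or for small p-values in their list, with values known. By a rule over all genes, 92 further genes whose average log2 CPM reached 2 were not called but had an unadjusted p under 0.01 and no overlap, 43 higher and 49 lower. The 12 highest and 12 lowest were taken for naming. Of these the nearest to the threshold were ABCC4 and MYO1E. ABCC4, an exporter of cyclic nucleotides and other organic anions, had 5.51, 6.78, 3.29, 3.42 and 6.48 CPM in 3y_swim, against 9.54, 16.9, 10.5, 18.6 and 8.39 CPM in 3y_control (log2 change -1.33 ± 0.25, edgeR adjusted p = 0.0526). MYO1E, a class I myosin that links membrane to actin, had 8.96, 10.9, 6.72, 9.51 and 12.55 CPM in 3y_swim, against 3.48, 3.215, 4.11, 3.13 and 3.80 CPM in 3y_control (log2 change 1.46 ± 0.28, edgeR adjusted p = 0.0712). Both were called by DESeq2, and so were ENC1, PPP1R13B, c1s.1, PISD and SLC39A13 of the genes that follow. ENC1, a kelch protein that binds actin, had 12.5 to 28.05 CPM in 3y_swim, against 4.29 to 9.315 CPM in 3y_control. On the higher side stood also PPP1R13B, a partner of p53, with a log2 change of 1.08 ± 0.25, pik3r3a, a regulatory subunit of PI3-kinase, with 1.05 ± 0.30, and tasor2 with 1.06 ± 0.30. c1s.1, a protease of the complement system, had 0.98 ± 0.26, the repressor KLF3 0.89 ± 0.26, PDLIM1, a scaffold of actin fibres, 0.89 ± 0.24, CHST8, a sulfotransferase, 0.83 ± 0.22, and SLC25A48 0.75 ± 0.21. On the lower side stood also PISD, which makes phosphatidylethanolamine in mitochondria, with 17.2, 21.4, 18.8, 22.15 and 15.7 CPM in 3y_swim, against 37.7, 22.9, 41.4, 28.7 and 30.25 CPM in 3y_control (log2 change -0.76 ± 0.17, edgeR adjusted p = 0.152). SLC39A13, a zinc transporter, had -0.91 ± 0.24, and RASL12, a small GTPase of the RAS family, -0.83 ± 0.27. GFM1, TIMM10, mrpl9 and PISD on the lower side belong to mitochondria, and so does the carrier SLC25A48 on the higher side. The share of mitochondrial genes among all genes tested was not counted, so no excess can be read from these names.

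Grouped by the letters of their symbols alone, 69 families with at least 20 tested genes could be counted. The 4 most one-sided were mitochondrial and cytosolic ribosomal proteins, in opposite directions. Of genes beginning with mrps 25 of 27 and with mrpl 42 of 46 had negative log2 changes, with medians of -0.31 and -0.25, against 51.1% of all genes. Of genes beginning with rpl 42 of 43 and with rps 39 of 46 had positive ones, with medians of 0.27 and 0.25, against 48.9% of all genes. The genes beginning with rps include kinases of a ribosomal protein. Among 23 genes beginning with stk, serine and threonine kinases, 7 were higher and 0 lower at an unadjusted p under 0.05, with a median of 0.19. The 21 genes beginning with ccl, chemokines, had a median of 0.44, and the 30 beginning with ftr, a fish family of TRIM proteins, 0.34, with 2 and 0 at that p. Of 279 solute carriers, 20 were higher and 15 lower at that p.

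**Figure D4:**
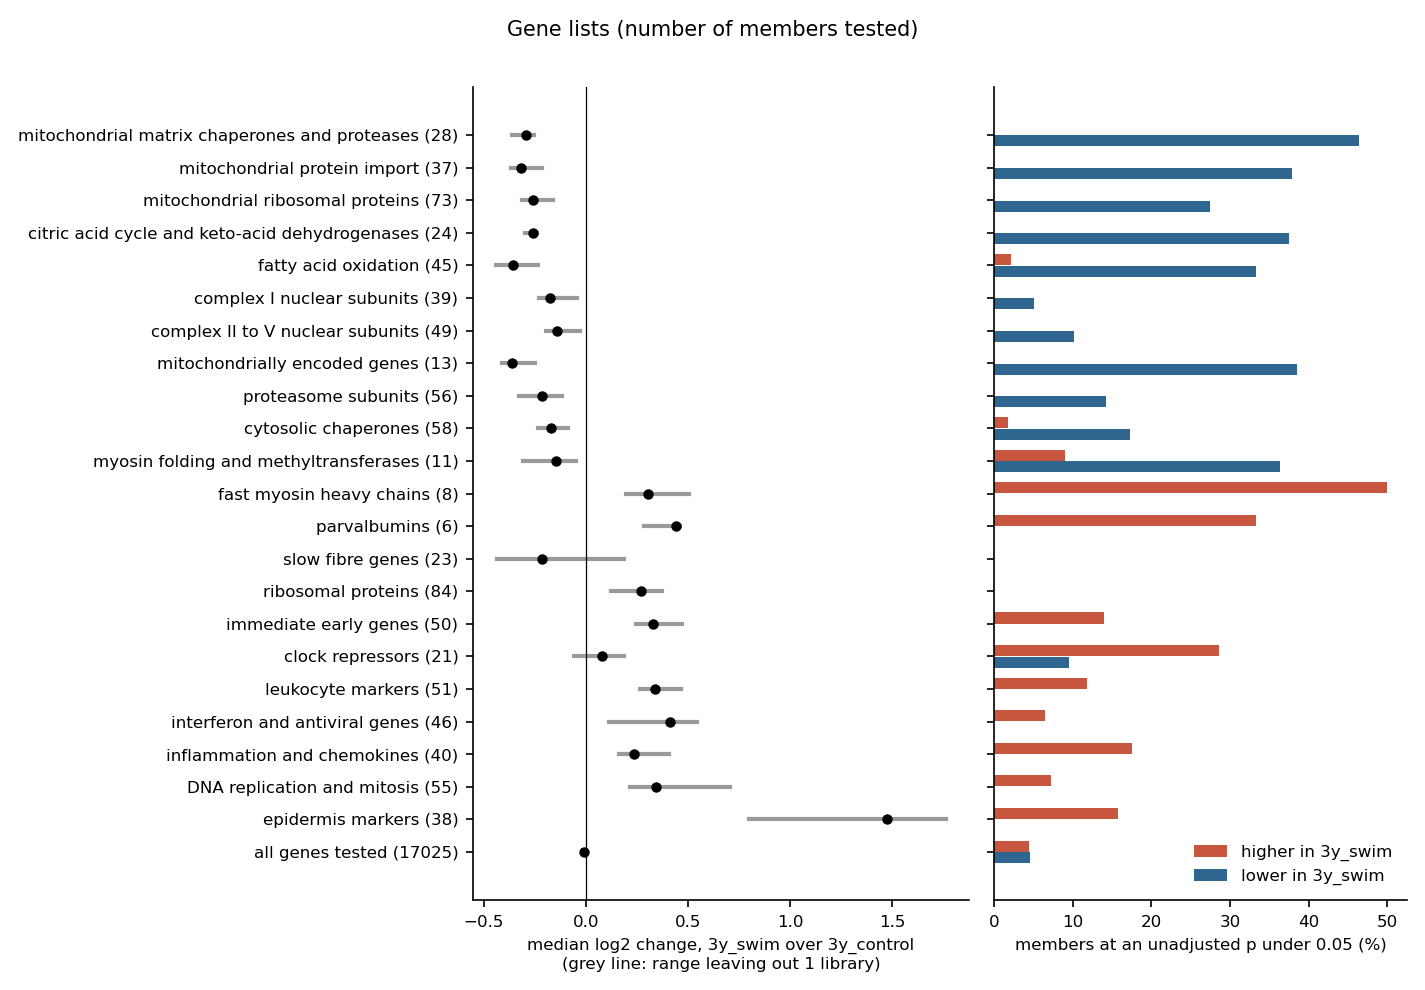
Left, the median log2 change (3y_swim over 3y_control) of 22 lists and of all genes tested, with the range of the median over fits that leave out 1 library as a grey line; right, the share of each list's members higher or lower at an unadjusted p under 0.05. Lists of mitochondrial proteins lie left of 0 with lower genes only or nearly so, fast myosins and parvalbumins right of it, and the ribosomal proteins have a positive median with 0 members at that p.

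The change at 3 years was set beside that of 1-year-old fish, which shares no library with it. At 1 year 194 genes were called (1.14%). Across all 17025 genes the log2 changes of the 2 ages had a correlation of -0.15, and of -0.04 across the 7790 whose average log2 CPM reached 2; genes are not independent replicates, and no test was made. The difference between the ages was called for 57 genes (0.335%), 9 higher (0.0529%) and 48 lower (0.282%) at 3 years. DESeq2 called 407. Leaving out 1 library gave 3 to 163, the lowest without 3y_swim 3 and the highest without 1y_control 4. HSPD1 and HSPA9 were among the 57: their log2 changes were -0.73 ± 0.13 and -0.67 ± 0.12 at 3 years, against 0.48 ± 0.13 and 0.25 ± 0.12 at 1 year. Neither change at 1 year passed (edgeR adjusted p = 0.0653 and 0.268), and both rest in part on the TMM scaling. The differences were -1.20 ± 0.18 and -0.93 ± 0.18 (edgeR adjusted p = 0.00885 and 0.0308). AMD1 differed by -1.12 ± 0.21 (edgeR adjusted p = 0.0308), with -0.20 ± 0.15 at 1 year. si:ch73-141c7.1 had -1.12 ± 0.27 at 1 year, the opposite sign, and differed by 2.66 ± 0.38 (edgeR adjusted p = 0.00785). KLHL32 and ENSDARG00000104933 differed by 1.99 ± 0.36 and 1.36 ± 0.25 (edgeR adjusted p = 0.0297 for both). For myhz2 the log2 change at 1 year was 0.01 ± 0.35, and the difference of 2.32 ± 0.51 did not pass (edgeR adjusted p = 0.0544). XPO1 had 0.70 ± 0.19 at 1 year and a difference of 0.38 ± 0.27 (edgeR adjusted p = 0.550). These genes were named for their change at 3 years.

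With TMM scaling the medians of the mitochondrial lists had opposite signs at the 2 ages. Of the mitochondrial ribosomal proteins 66 of 73 differed in sign, of complex I genes 35 of 39, of mitochondrial import genes 28 of 37 and of matrix chaperones and proteases 23 of 28, against 47.3% of all genes. Their median log2 changes were -0.26, -0.18, -0.32 and -0.29 at 3 years and 0.54, 0.62, 0.45 and 0.32 at 1 year. The TMM factors were 0.66 to 0.95 in 1y_swim and 1.04 to 1.25 in 1y_control, and a lower factor raises every CPM of a library. The positive medians at 1 year thus rest in part on the scaling. Whether the opposite signs or the called differences hold with library totals was not tested, so no reversal between the ages can be read from these medians alone. The difference was called for 7 of 28 matrix chaperones and proteases, 4 of 37 import genes, 2 of 73 mitochondrial ribosomal proteins and 2 of 39 complex I genes. In each case it was lower at 3 years, as it was for 0.282% of all genes. Among them were TIMM50 with a difference of -1.16 ± 0.16, HSPE1 with -1.21 ± 0.22, TRAP1 with -0.99 ± 0.21 and PHB2 (ENSDARG00000045297) with -1.01 ± 0.20 (edgeR adjusted p = 0.00785, 0.0297, 0.0457 and 0.0408). Exocrine pancreas markers accounted for 12 of the 57 genes, with medians of -1.29 at 3 years (-2.12 without 3y_swim 2) and 3.59 at 1 year, and their part in the other differences was not tested. Cytosolic ribosomal proteins had positive medians at both ages, 0.27 and 0.52, and 2 of 84 differed in sign.

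**Figure D5:**
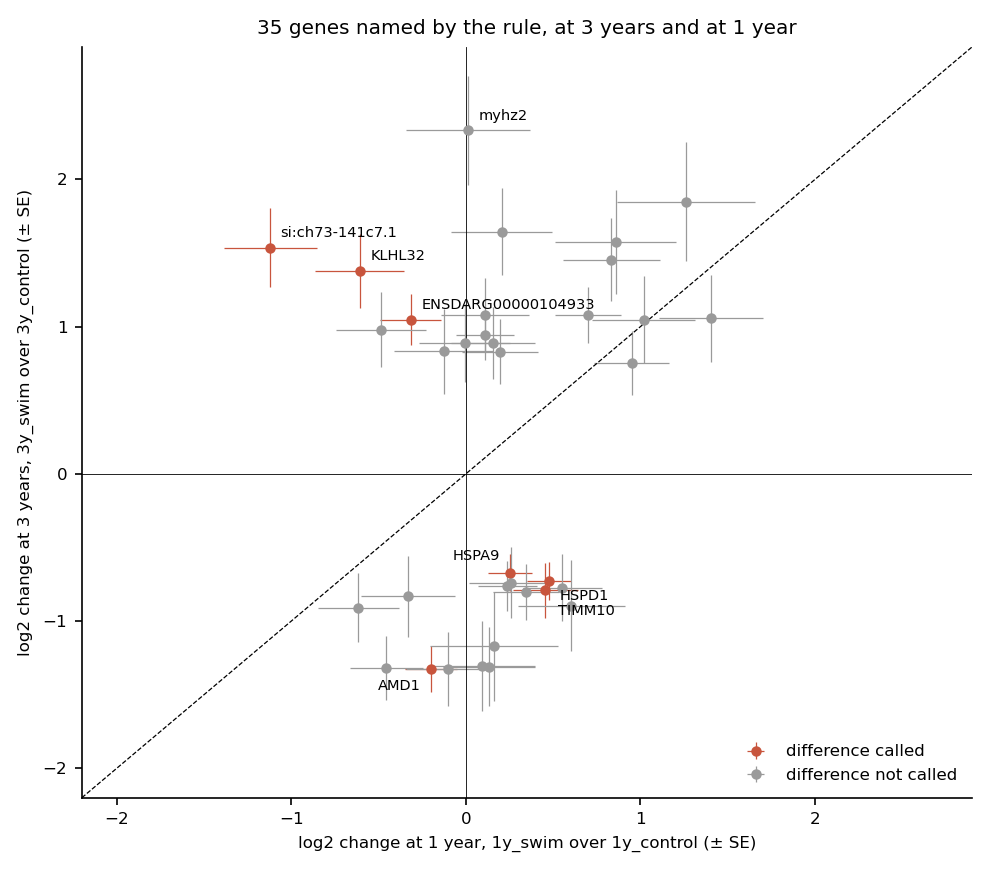
The genes named by the rule (called genes and the 12 highest and 12 lowest not called, without si:ch211-114l13.11), with the log2 change at 1 year (1y_swim over 1y_control) across and at 3 years (3y_swim over 3y_control) upwards, bars giving the SE; on the dashed line both would be equal. The 7 genes in colour, whose difference between the ages was called, lie away from that line, 4 lower and 3 higher at 3 years.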

How the data were processed

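Muscle RNA of 20 libraries was sequenced from TruSeq RNA v2 kits, per the labels' protocols. The submitters' processing notes name the genome build GRCz10, the counter featureCounts 1.4.6-p4, the aligner STAR 2.4.1d and the converter bcl2fastq 1.8.4; strandedness and the annotation release are not given in the sources used here. The authors deposited raw read counts per gene for 32105 genes, with 5501 at 0 in every library. A second deposited table, named as RPKM, was treated as a score: its values equal counts over gene length and over totals that change from row to row instead of each library's own total, so it was checked and used for no result.

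Genes were kept by edgeR's filterByExpr over the 4 groups (17025 genes), scaled by TMM, and tested with edgeR 4.0.16 (R 4.3.3) by the robust quasi-likelihood F-test with 4 group means over all 20 libraries, which share the estimate of the spread. The contrast was 3y_swim minus 3y_control, with Benjamini-Hochberg adjustment over all genes, and the standard error is the log2 change divided by the root of F. CPM values use the TMM-scaled library sizes. The procedure was run on simulated counts with 1 dispersion for all genes and no outlying library. That run does not bear on calls that rest on single libraries. DESeq2 1.42.0 and limma 3.58.1 were alternatives, beside 2 other scalings, 2 other filters, the 10 libraries of 3 years alone, and fits without single libraries or without 3y_swim 1 and 3. Libraries held 3.16e+07 to 4.89e+07 counts.

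Replicates were numbered in the order of the records. The sample titles hold a running number for each library, but no label gives a replicate number, batch or pairing. Lists hold genes matched by symbol. They are described by counts and medians, with no test over a list. Every called gene was named, then the 12 highest and 12 lowest uncalled genes with a symbol, an average log2 CPM of 2 or more, an unadjusted p under 0.01 and no overlap, up to 2 genes per list by p, and others by role. Some genes that these rules select are not reported here. The comparison, lists and rules were chosen with earlier results of these data known.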

Additional observations from a re-analysis of the deposited data

Results flagged for a closer look

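For 7 of the 36 genes named by rule the change at 3 years differed from that at 1 year by the edgeR test of the difference. Over all genes tested that difference was called for 0.335%. The 36 genes were named for their change at 3 years, which is part of the difference, so no excess can be read from the 7. The difference, on the log2 scale, was -1.12 for AMD1 (edgeR adjusted p = 0.0308), -1.20 for HSPD1 (edgeR adjusted p = 0.00885), -0.93 for HSPA9 (edgeR adjusted p = 0.0308) and -1.25 for TIMM10 (edgeR adjusted p = 0.0457). It was 2.66 for si:ch73-141c7.1 (edgeR adjusted p = 0.00785), 1.99 for KLHL32 and 1.36 for ENSDARG00000104933 (edgeR adjusted p = 0.0297 for both).

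In 10 of 72 groups checked, over 36 genes, 1 library stood far from the other 4, by Dixon's test of the gap over the range. For 5 independent, normally distributed values chance gives such a gap in about 1 of 20 groups. The 36 genes were picked for their values in these same libraries, and the groups share libraries. No excess can therefore be read from that rate. 3y_control 1 was the high library in 4 of the 10 groups, with 193.5 CPM of HSPA9, 282 CPM of FABP3, 52.4 CPM of GFM1 and 2.67 CPM of RAD54B. 3y_swim 5 was high for HSPD1, with 25.6 CPM, and for tasor2, with 21.7 CPM. 3y_swim 3 was low for PPP1R13B, with 24.3 CPM, and 3y_control 5 was low for mhc1uca, with 13.9 CPM. SLC39A13 had a high library in both groups, 3.60 CPM in 3y_swim 2 and 7.73 CPM in 3y_control 5.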

How the results depend on the processing

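The count of 12 genes called at 3 years was 12 with RLE size factors, 9 with limma's voom, 9 with no filter on low counts and 12 with a filter of 1 CPM in 5 libraries. It was 3 with library totals, 103 with DESeq2, 2 in the 10 libraries of 3 years alone and 1 without 3y_swim 1 and 3. The 2 genes in the 10 libraries were AMD1 and MYO1E, so AMD1 alone of the 12 passed there. Leaving out 1 library gave 1 to 13, with 1338 to 1825 genes at an unadjusted p under 0.05. The 57 differences between the ages were 31 with RLE size factors and 407 with DESeq2, and 3 to 163 without 1 library. They were not fitted with library totals.

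The log2 change of col17a1a, a collagen of the epidermis, was 3.61, and it did not pass; it was -1.57 without 3y_swim 1 and 3. Of the other log2 changes of named genes under the alternatives, 4570 stayed on their side of the threshold with their sign, 45 passed anew and 184 no longer passed, and the causes were not tested. Most of these genes did not pass in the main fit, so for them staying meant not passing again. The 184 all fall on the 12 called genes, where AMD1 alone passed in all 28 alternatives and KLHL32 passed in 4. List medians moved by less than the spread between replicates in 2083 cases and by more in 17. Liver markers had 0.65 with voom, DNA replication and mitosis 0.03 with the filter of 1 CPM, and polyamine genes 0.06 with voom. That spread was the larger within-group SD of the list level, so lists that vary widely could change sign within it. Slow and cardiac myosins did, from -0.36 to 0.44 without 3y_control 3, so the 2083 cases do not show that medians were stable.

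No paired analysis was possible because the labels give no pairing of libraries. With 5 libraries per group and a median standard error of 0.28, small changes were not detectable. Reads of near-identical paralogues and of overlapping genes may be shared, and the labels give no exercise time, fish identity or day.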

Other observations

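Some lists that the comparison did not lead to are given here as values. Of 61 redox and glutathione enzymes 7 were lower and 0 higher in 3y_swim at an unadjusted p under 0.05, and of 50 genes of cholesterol and fatty acid synthesis 5 were lower and 1 higher. Of 56 potassium and sodium channels 36 had a negative log2 change, with 4 lower and 1 higher at that p. Of 33 myogenic and satellite cell genes 23 had a negative log2 change, with 1 higher and 1 lower. Of 32 p53 targets and cyclin kinase inhibitors 24 had a positive log2 change, with 1 higher and 0 lower. In this order the shares at that p in either direction were 11.5%, 12%, 8.93%, 6.06% and 3.125%, against 9.03% of all genes. None of these 5 lists held a gene called by edgeR or DESeq2.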
